A study of Mus musculus with 31 samples.

Results

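The genes followed here encode RNA-binding proteins that set how long inflammatory mRNAs last: the zinc finger genes Zfp36, Zfp36l1 and Zfp36l2, the Regnase genes Zc3h12a and Zc3h12c, the Roquin genes Rc3h1 and Rc3h2, and the stabilizer gene Elavl1. They were chosen by symbol from the deposited table of gene counts, and all 8 were found among its 24411 entries. Their mRNA was measured by RNA-seq in Ly6C-hi monocytes of C57BL/6J mice, in 3 groups of 3 libraries: blood monocytes of healthy mice (healthy blood), blood monocytes of mice carrying subcutaneous Lewis lung carcinoma (LLC blood), and monocytes sorted out of the LLC tumors (LLC tumor). LLC is a transplanted mouse lung cancer cell line. The cells of all 3 groups were sorted as CD11b+, Ly6G-, Ly6Chi and MHC-II-. No transgene, knockout or drug is named for any of these groups, and the labels give neither age nor sex. The labels do not say whether the libraries of a group came from separate mice, so the p-values measure the spread between these libraries.

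Unstable inflammatory mRNAs carry AU-rich stretches or small stem-loops after their coding part. ZFP36 family proteins (ZFP36 is also called tristetraprolin) bind the AU-rich stretches and recruit the CCR4-NOT complex, which shortens the poly(A) tail and so starts decay. Regnase-1, encoded by Zc3h12a, is an endonuclease that cuts stem-loops of mRNAs under translation, and Roquin-1 and Roquin-2, encoded by Rc3h1 and Rc3h2, bind such stem-loops and also recruit CCR4-NOT. HuR, encoded by Elavl1, binds AU-rich stretches and mostly stabilizes the mRNA. In monocytes and macrophages the decay proteins, as opposed to HuR, limit Tnf, Il6, Cxcl2 and similar mRNAs, and Zfp36 and Zc3h12a are themselves induced by inflammatory stimuli.

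Total counts ran from 10457492 to 20706412 per library, and TMM scaling factors from 0.798 in LLC tumor 1 to 1.07. The 12 monocyte markers, among them Itgam, Ly6c2, Ccr2 and Csf1r, had counts in every library, with summed levels of 38736 to 42774 CPM (counts scaled to a common library total) in healthy blood, 29443 to 32836 in LLC blood and 17580 to 22672 in LLC tumor. Lyz2 held most of that difference, at 25713 to 29077 CPM in healthy blood and 6898 to 9308 in LLC tumor. Ly6c2 was likewise lower in the tumor libraries (272 to 472, beside 1571 to 1728), whereas Itgam was higher (3193 to 3720, beside 893 to 949) and so was Cd14 (1378 to 2009.8, beside 40.8 to 52.2). LLC blood 1 stood apart: its 6 fibroblast markers together had 412 CPM, where the other LLC blood libraries had 3.67 and 4.54. Healthy blood 2 held 48.5 CPM of the B cell marker Cd79a, and the other healthy libraries 0.572 and 2.02. In the tumor libraries the fibroblast markers summed to 927 CPM in LLC tumor 1 and to 3431 and 3886 in the other libraries. Col3a1 held most of these sums, at 713, 2801 and 3099 CPM. Dcn stood at 108, 263 and 314 there, while Pdgfrb, at 2.08 to 7.69, overlapped its blood values of 1.36 to 5.36. In LLC blood 1, Col1a1 was the highest of these markers at 212 CPM, with Col3a1 at 57.2. The source of this mRNA was not tested.

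In the plot of member levels by library, 3 genes rose in the tumor: Zfp36, Zfp36l1 and Zc3h12a. Against LLC blood these were the only members that passed the test (edgeR quasi-likelihood, Benjamini-Hochberg adjusted p under 0.05 over 12337 genes), and each rose at least 2-fold. So 3 of 8 members were called, all higher, where 61.3% of all tested genes were called in either direction, 29.6% higher, 31.7% lower and 17.3% higher by at least 2-fold. Against healthy blood, LLC tumor had 4 members higher and 1 lower, where 66.5% of all genes were called, 33.5% higher and 33.0% lower; 3 members were higher by at least 2-fold, where 19.7% of all genes were. LLC blood against healthy blood gave smaller changes: Zc3h12c rose, and Zfp36l2 and Elavl1 fell, so 3 of 8 were called where the share of all genes was 23.6%, with 14.0% higher and 9.61% lower. The libraries of the groups did not overlap for 5 members between the blood groups, 3 between tumor and LLC blood, and 6 between tumor and healthy blood, where the shares of all genes were 51.3%, 68.3% and 70.6%. In that order, the median member log2 fold change was -0.08, 0.21 and 0.57, beside -0.01, -0.03 and 0.00 over all genes.

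**Figure D1:**
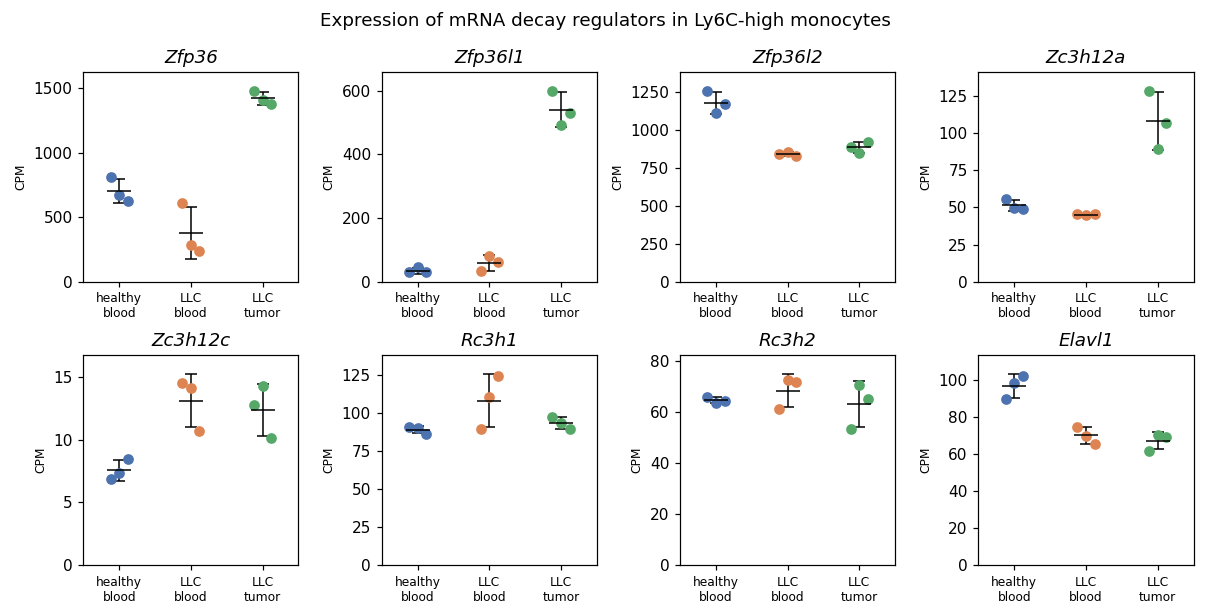
CPM of each of the 8 genes in the 9 libraries; each panel is a gene, points are libraries and the bars are the group mean and SD (n = 3), with axes starting at 0. The tumor libraries of Zfp36 lie at 1379 to 1477 CPM and those of Zfp36l1 at 493 to 599, above every blood library, while the Roquin genes overlap in all groups.

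Zfp36, the tristetraprolin gene, stood at 808, 668 and 628 CPM in healthy blood, at 609.5, 281 and 238 in LLC blood, then at 1477, 1409.9 and 1379 in LLC tumor. All tumor libraries were above all blood libraries, and all LLC blood libraries were below all healthy ones, with LLC blood 1 close to the healthy range. The group means were 701 ± 94.7, 376 ± 203 and 1422 ± 50.3 CPM (SD, n = 3). In LLC tumor the log2 fold change was 2.13 ± 0.33 (SE) over LLC blood, a 4.38-fold rise (edgeR adjusted p = 0.000367), and 1.20 ± 0.32 over healthy blood (edgeR adjusted p = 0.00777). Between the blood groups the value was -0.93 ± 0.32, which missed the threshold (edgeR adjusted p = 0.0623). Of 20 alternatives, the blood value passed in 9 and missed in the others. It passed with DESeq2 (-0.94, DESeq2 adjusted p = 0.0113) and limma-voom (-1.25, limma-voom adjusted p = 0.000843). Without LLC blood 1 it was -1.45 and passed (edgeR adjusted p = 0.00112), and it also passed without LLC tumor 1 (-0.97, edgeR adjusted p = 0.0349). Without any 1 of the other libraries it did not pass, and it was smallest without LLC blood 3 (-0.68, edgeR adjusted p = 0.188) and LLC blood 2 (-0.75, edgeR adjusted p = 0.200). Because these are bulk libraries, fewer cells of a type and less RNA per cell cannot be told apart.

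Zfp36l1, a paralog with the same RNA-binding zinc fingers, had the largest fold change of the 8 members in both tumor comparisons. It stood at 29.4, 45.6 and 29.5 CPM in healthy blood, 33.6, 81.2 and 62.4 in LLC blood, then 599, 493 and 529 in LLC tumor. The tumor libraries were far above both blood groups, while the blood groups overlapped through LLC blood 1 and healthy blood 2. The means of 34.8 ± 9.36, 59.1 ± 24.0 and 540.4 ± 54.0 CPM gave a log2 fold change in LLC tumor of 3.41 ± 0.33 over LLC blood, a 10.6-fold rise (edgeR adjusted p = 1.96e-05), and 4.15 ± 0.34 over healthy blood, a 17.7-fold rise (edgeR adjusted p = 6.21e-06). The value in LLC blood against healthy blood was 0.74 ± 0.31 and did not pass (edgeR adjusted p = 0.115), but it was 1.02 and passed without LLC blood 1 (edgeR adjusted p = 0.0206) and 0.46 without LLC blood 2 (edgeR adjusted p = 0.379). It also passed with limma-voom (0.81, adjusted p = 0.0164). By fold change over LLC blood, Zfp36l1 ranked 894 from the top of the 12337 tested genes. The fibroblast markers were at 927, 3431 and 3886 CPM in LLC tumor 1, 2 and 3, and their part in the rise of Zfp36l1 was not tested.

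Zfp36l2, the third family member, had its highest level in healthy blood. Its healthy libraries held 1258, 1112 and 1169 CPM, its LLC blood libraries 841.5, 856 and 828, and its tumor libraries 889.9, 851.5 and 924. In these CPM, every healthy library was above every other library, and LLC blood and LLC tumor overlapped. TMM factors, 0.798 in LLC tumor 1, enter the fold changes that follow but not these CPM. The order of libraries may therefore differ on the scale of the test. Counts shared between genes occurred among the members for Zfp36l1 and Zfp36l2 in LLC tumor 2 alone. The means were 1179.7 ± 73.9, 842 ± 14.2 and 888 ± 36.2 CPM. Zfp36l2 fell in LLC blood by 0.51 ± 0.11 on the log2 scale (edgeR adjusted p = 0.0109), a call that was lost without LLC blood 3 (-0.50, edgeR adjusted p = 0.0513). In LLC tumor it was 0.29 ± 0.11 above LLC blood (edgeR adjusted p = 0.0507) and -0.23 ± 0.11 against healthy blood (edgeR adjusted p = 0.101), neither past the threshold. Without LLC tumor 1 both passed, at 0.20 (edgeR adjusted p = 0.0373) and -0.36 (edgeR adjusted p = 0.00208). T cell markers, whose cells also express this gene, summed to 32.9, 81.7 and 121 CPM in healthy blood, lowest in healthy blood 1 where Zfp36l2 was highest, and to 14.0 to 14.6 in LLC blood; their part in the fall was not tested.

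Among the Regnases, Zc3h12a, which encodes the stem-loop endonuclease Regnase-1, had 55.5, 49.3 and 48.9 CPM in healthy blood, 45.3, 44.5 and 45.3 in LLC blood, then 128, 89.4 and 107 in LLC tumor. The tumor libraries were above all blood libraries, and the LLC blood libraries lay just below the healthy ones. With means of 51.2 ± 3.72, 45.1 ± 0.442 and 108 ± 19.4 CPM, Zc3h12a rose in LLC tumor 2.80-fold over LLC blood (log2 1.49 ± 0.18, edgeR adjusted p = 9.19e-05) and 2.42-fold over healthy blood (log2 1.28 ± 0.18, edgeR adjusted p = 0.000203). The healthy comparison fell to 0.99 without LLC tumor 1, below a 2-fold rise, and still passed the test. LLC blood against healthy blood was -0.21 ± 0.18 (edgeR adjusted p = 0.436), and it passed without LLC tumor 1 at -0.26 (edgeR adjusted p = 0.0450).

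Zc3h12c, which encodes Regnase-3, had 6.86, 7.31 and 8.46 CPM in healthy blood, 14.5, 14.1 and 10.7 in LLC blood, then 12.7, 14.3 and 10.1 in LLC tumor. Both tumor-bearing groups were above all healthy libraries and overlapped each other. The log2 fold change was 0.76 ± 0.19 in LLC blood (edgeR adjusted p = 0.0179) and 0.89 ± 0.19 in LLC tumor (edgeR adjusted p = 0.00244), both relative to healthy blood. From LLC blood to LLC tumor it was 0.13 ± 0.19 (edgeR adjusted p = 0.570). The blood call was lost without healthy blood 1 (0.70, edgeR adjusted p = 0.0668), healthy blood 2 (0.68, edgeR adjusted p = 0.0815), LLC blood 1 (0.69, edgeR adjusted p = 0.0509) or LLC blood 2 (0.71, edgeR adjusted p = 0.0728).

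The Roquin genes did not pass the main edgeR test in any of the 3 comparisons. Rc3h1 passed in LLC blood against healthy blood in 1 of 20 alternatives, limma-voom (0.31, limma-voom adjusted p = 0.0156). Rc3h1 stood at 91.0, 90.1 and 86.6 CPM in healthy blood, 89.9, 110.6 and 124.5 in LLC blood, then 97.9, 93.7 and 89.9 in LLC tumor, with log2 values from -5.3e-05 to 0.26 and adjusted p from 0.129 upward. Rc3h2 stood at 66.0, 63.6 and 64.4 CPM, then 61.1, 72.6 and 71.8, then 53.2, 70.7 and 65.3, with log2 values from 0.06 to 0.13 and adjusted p from 0.183 upward. The libraries of the groups overlapped for both genes in all 3 comparisons. The annotated microRNA gene Mir6244 lies inside Zc3h12c and the small nucleolar RNA gene Snord90 inside Rc3h2.

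Elavl1, which encodes the stabilizer HuR, was lower in both tumor-bearing groups. It stood at 89.8, 98.8 and 102 CPM in healthy blood, 75.0, 69.7 and 65.7 in LLC blood, then 61.9, 70.5 and 69.1 in LLC tumor. No healthy library overlapped the other groups, whereas LLC blood and LLC tumor did overlap. Elavl1 fell by 0.50 ± 0.08 on the log2 scale in LLC blood (edgeR adjusted p = 0.00270) and by 0.36 ± 0.08 in LLC tumor (edgeR adjusted p = 0.00329), both against healthy blood. In LLC tumor against LLC blood the value was 0.14 ± 0.08 and did not pass (edgeR adjusted p = 0.162).

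**Figure D2:**
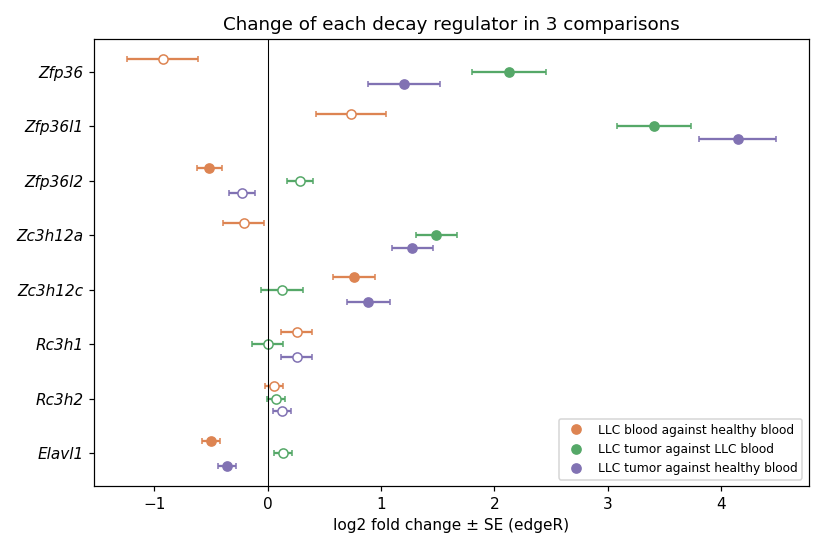
log2 fold change (point) and its SE (bar) of each gene in the 3 comparisons; filled points have an adjusted p under 0.05 and open points do not. Zfp36l1 lies farthest from 0, at 3.41 over LLC blood and 4.15 over healthy blood, and Rc3h1 and Rc3h2 are open throughout.

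In the RefSeq annotation of build GRCm38.p6, the 3 genes that rose in the tumor lie on the minus strand: Zfp36 spans chr7:28376784-28379228, Zfp36l1 chr12:80107760-80113013 and Zc3h12a chr4:125118414-125127881. Of the other members, Zfp36l2 spans chr17:84183924-84187947, Zc3h12c chr9:52109569-52168730, Rc3h1 chr1:160906411-160974976, Rc3h2 chr2:37368861-37424370 and Elavl1 chr8:4284781-4325140. The 250 bases before each start, read 5′ to 3′ on the gene's strand, are shown because these are the members whose mRNA changed most; capitals mark motif letters described after them.

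Zfp36, chr7:28379229-28379478, minus strand: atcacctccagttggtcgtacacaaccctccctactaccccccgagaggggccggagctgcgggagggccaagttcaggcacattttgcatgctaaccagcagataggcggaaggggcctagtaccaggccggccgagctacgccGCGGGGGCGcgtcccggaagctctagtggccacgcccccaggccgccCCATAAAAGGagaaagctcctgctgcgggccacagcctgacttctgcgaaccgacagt
Zfp36l1, chr12:80113014-80113263, minus strand: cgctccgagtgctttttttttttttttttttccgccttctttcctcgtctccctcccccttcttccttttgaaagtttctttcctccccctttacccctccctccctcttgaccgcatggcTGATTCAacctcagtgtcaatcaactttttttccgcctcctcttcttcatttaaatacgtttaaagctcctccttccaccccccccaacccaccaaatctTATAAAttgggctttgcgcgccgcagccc
Zc3h12a, chr4:125127882-125128131, minus strand: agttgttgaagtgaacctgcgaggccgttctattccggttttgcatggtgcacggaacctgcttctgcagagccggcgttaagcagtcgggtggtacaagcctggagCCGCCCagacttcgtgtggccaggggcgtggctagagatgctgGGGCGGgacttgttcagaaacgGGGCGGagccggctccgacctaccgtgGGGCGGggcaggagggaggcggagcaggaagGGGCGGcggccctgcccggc

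In Zfp36 the capitals are an EGR site (GCGNGGGCG on either strand), bases 105 to 97 before the start, and a CArG box, the site of serum response factor, bases 58 to 49 before it. The window also holds, unmarked, a GC box at bases 63 to 58, which shares a base with the CArG box, and a STAT site (TTCNNNGAA) at bases 17 to 9, found in 7.02% of windows. EGR sites were in 4.70% and CArG boxes in 1.47% of all 32851 promoter windows of this length. In Zfp36l1 they are an AP-1 site (TGANTCA), found in 6.75% of windows, and a TATA box (TATAAA) 29 to 24 bases before the start, found in 12.4%. In Zc3h12a they are 5 GC boxes (GGGCGG on either strand), and 32.7% of windows held at least 1. Rc3h1, which was not called, also had 5 GC boxes and an AP-1 site in its window. None of the 3 windows held a match to the NF-kB motif as searched, which was in 7.25% of windows. These are letter matches, not measured binding. Of the 8 members, 7 had a promoter entry, and Zfp36l2 did not.

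Genes of the early stress response moved with Zfp36. A list of 27 genes known to rise when tissue is dissociated (Fos, Jun, Egr1, heat shock genes and others) reached 10782, 8870 and 8218 CPM together in healthy blood, 7613, 4933 and 5075 in LLC blood, then 22913, 18056 and 17448 in the tumor. The 9 libraries fell in the same order by this sum and by Zfp36, apart from LLC blood 2 and LLC blood 3, which changed places. Against LLC blood, 25 of the 27 rose in LLC tumor and 1 fell, where 29.6% of all genes rose and 31.7% fell. The median log2 fold change was 2.28, beside -0.03 over all genes. In LLC blood against healthy blood 2 rose and 7 fell, where 14.0% of all genes rose and 9.61% fell. The median there was -0.73, beside -0.01 over all genes. The largest tumor changes of called list genes above 20 CPM on average were in the early genes Ier3 (5.84), Egr2 (5.78) and Fosb (5.14); how the tumors were dissociated is not given in the sources used here, and the part of such stress in the level of Zfp36 was not tested.

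**Figure D3:**
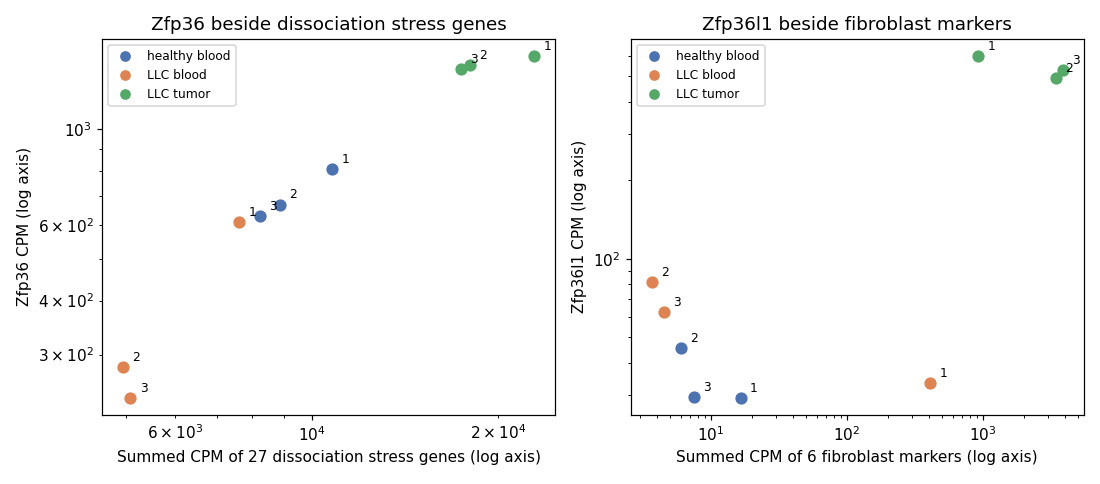
Left, Zfp36 CPM against the summed CPM of the 27 stress genes; right, Zfp36l1 CPM against the summed CPM of the 6 fibroblast markers; each point is a library with its replicate number, and all axes are log scales. The tumor libraries lie highest on both axes of both panels; LLC tumor 1 has 927 CPM of fibroblast markers and 599 CPM of Zfp36l1. The part of stress or of fibroblast mRNA in these levels was not tested.

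Markers of other cell types differed between the groups. The 5 endothelial markers summed to 11.2 to 18.7 CPM in the blood groups and 50.7 to 69.6 in LLC tumor. Pecam1 held most of these sums, at 9.75 to 17.2 and 41.0 to 56.1 CPM. Kdr and Cdh5 were also higher in the tumor, and Tek and Emcn were at or below 0.864 in every library. The 6 epithelial genes listed for LLC cells summed to 7.91 to 9.95 CPM in the blood groups and 18.4 to 49.6 in LLC tumor. Of 6 platelet markers, Pf4 (0.435 to 4.85 CPM in the blood groups, 70.5 to 119 in LLC tumor) and Ppbp (0.966 to 6.88 and 66.0 to 110.4) were higher in the tumor, and Itga2b, Gp9, Gp1ba and Gp1bb were at or below 1.77 there. In contrast, NK cell markers went from 180 to 354 in healthy blood to 5.50 to 15.3 in LLC tumor, and dendritic cell markers from 80.2 to 85.8 to 6.23 to 9.40. The 11 neutrophil markers summed to 675 to 902 CPM in healthy blood, 790 to 1261 in LLC blood and 306 to 535 in LLC tumor. Csf3r made up much of the tumor difference (488 to 543 in the blood groups, 136 to 157 in LLC tumor), and the granule gene Elane stood at 0.368 to 0.553 in healthy blood and 3.35 to 8.51 in LLC blood. Erythroid markers (6 genes) summed to 168 to 919 in the blood groups and 1.08 to 3.46 in LLC tumor. The part of these cells in the member values was not tested.

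The decay and stabilizing arms were then set against each other within each library, as the log2 ratio of each zinc finger or Roquin gene to Elavl1 or to a paralog. Such a ratio needs no scaling between libraries. In LLC tumor against LLC blood the ratio to Elavl1 was 4.31-fold higher for Zfp36 (log2 difference 2.11 ± 0.38, SE), 10.1-fold higher for Zfp36l1 (3.34 ± 0.44) and 2.48-fold higher for Zc3h12a (1.31 ± 0.21). The ratio of Zfp36l2 to Elavl1 held overlapping values in all 3 comparisons, at -0.02 ± 0.11 between the blood groups, where both genes fell. In the same comparison, the ratios of Zc3h12c, Rc3h1 and Rc3h2 to Elavl1 were higher in every LLC blood library than in every healthy one. The differences were 1.25 ± 0.11, 0.73 ± 0.21 and 0.54 ± 0.15. Elavl1 itself fell there by 0.50 on the log2 scale, while Rc3h1 (0.26) and Rc3h2 (0.06) were not called. Among paralogs, Zfp36l1 to Zfp36l2 was 9.21-fold higher in LLC tumor than in LLC blood (3.20 ± 0.38) and 21.0-fold higher than in healthy blood (4.39 ± 0.27). Zc3h12c to Zc3h12a was higher in LLC blood than in healthy blood (0.97 ± 0.20) and lower in LLC tumor than in LLC blood (-1.33 ± 0.28). With 3 libraries a group the exact two-sided permutation test cannot go below p = 0.1. Over 36 tests of 12 ratios the smallest adjusted value was 0.171, so no ratio can pass. The libraries did not overlap for 5, 7 and 9 ratios between the blood groups, tumor and LLC blood, and tumor and healthy blood. Among all tested single genes, 51.3%, 68.3% and 70.6% did not overlap. The ratios share Elavl1 and other members, so these counts are not separate evidence, and ratios of other genes were not computed.

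**Figure D4:**
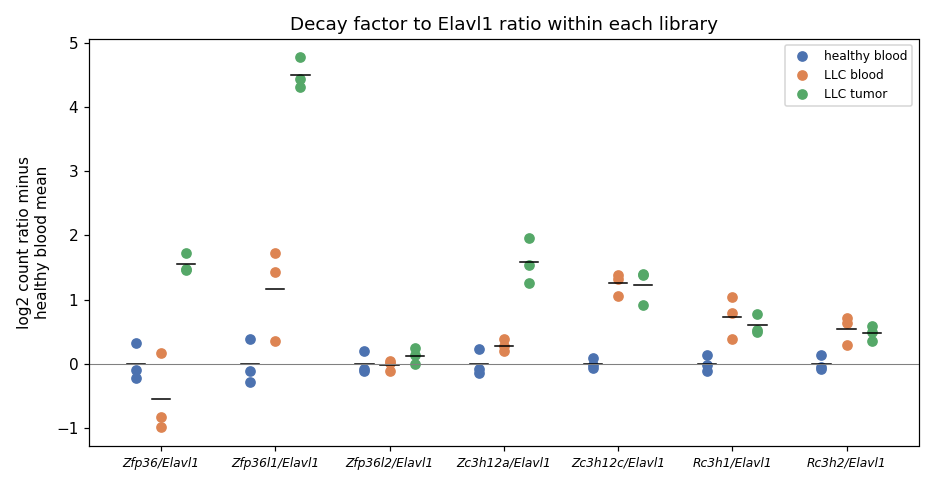
log2 ratio of each gene to Elavl1 in each library, minus the mean of healthy blood; points are libraries and bars group means. The tumor libraries of Zfp36l1 lie from 4.31 to 4.78 and those of Zfp36 from 1.47 to 1.73.

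The genes whose pattern over the 9 libraries was closest to each risen member were found by the smallest root-mean-square difference of centred log2(CPM + 1), among 6904 genes of at least 20 CPM on average. For Zfp36 they were Jund (0.159), Fos (0.200) and Junb (0.247), subunits of the AP-1 transcription factor. For Zfp36l1 they were Vdr (0.312), which encodes the vitamin D receptor, Tes (0.313) and the chemokine receptor gene Ccr1 (0.315). For Zc3h12a they were Eid1 (0.0724), Fcgr3 (0.0907), an Fc receptor gene with counts shared between genes, and Sqstm1 (0.0996), which encodes the autophagy receptor p62. Jund, Fos and Junb are also on the stress list. Among the members themselves, Zfp36l2 and Elavl1 were closest (0.124), then Rc3h1 and Rc3h2 (0.156).

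Of 29 genes of deadenylation and decapping, the machinery that the decay proteins recruit, 4 rose and 2 fell between healthy and LLC blood, while 7 rose and 8 fell from LLC blood to LLC tumor, with medians of 0.02 and -0.05. Over all genes 14.0% rose and 9.61% fell in the first comparison and 29.6% rose and 31.7% fell in the second. Xrn1, the exonuclease that degrades decapped mRNA, went from 13.01 ± 2.15 to 50.6 ± 7.34 CPM in LLC blood (log2 1.94 ± 0.14, edgeR adjusted p = 5.43e-05) and stood at 39.1 ± 3.83 in LLC tumor. Btg1, which binds the CCR4-NOT deadenylases, went from 405.5 ± 51.2 CPM in LLC blood to 2275 ± 643 in LLC tumor (2.73 ± 0.26, edgeR adjusted p = 1.94e-05). Its relative Tob1 rose by 1.30 ± 0.21, and the decapping enzyme gene Dcp2 fell by 1.28 ± 0.09. In LLC blood the related gene Btg2 fell by 0.73 ± 0.15, and Cnot1, the scaffold of CCR4-NOT, rose by 0.57 ± 0.08 with counts shared between genes.

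Of 15 exosome genes, whose complex degrades mRNA from the opposite end, 2 rose and 2 fell between the blood groups, while 1 rose and 5 fell from LLC blood to LLC tumor (medians -0.02 and -0.13), beside 23.6% and 61.3% of all genes called. Ttc37, a subunit of the Ski complex that feeds the exosome, rose by 1.28 ± 0.15 in LLC blood, while Exosc5 fell by 0.65 ± 0.10 and Dis3l by 0.54 ± 0.09 in LLC tumor. Of 15 tested other AU-rich element binding proteins of 19 listed, 1 rose and 5 fell between the blood groups, while 4 rose and 4 fell from LLC blood to LLC tumor, beside the same shares of all genes. Celf2 fell by 1.12 ± 0.11 and Tia1, a translational repressor, by 0.78 ± 0.08. Igf2bp2, which stabilizes mRNAs, stood at 0.576 ± 0.139 CPM in healthy blood and at 13.9, 51.1 and 54.0 CPM in LLC tumor, beside fibroblast markers of 927, 3431 and 3886 CPM in the same libraries; their part in its level was not tested.

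Of 23 tested regulators of the decay proteins, 1 was called between the blood groups: Ywhaq, which encodes a phosphoprotein-binding adaptor, fell by 0.33 ± 0.07. From LLC blood to LLC tumor 9 regulators rose and 7 fell, where 29.6% of all genes rose and 31.7% fell. Dusp1, the phosphatase that limits p38 signalling, went from 108 ± 80.7 CPM in LLC blood to 1719 ± 236 in LLC tumor (4.22 ± 0.53, edgeR adjusted p = 0.000110). Mapk14, the p38 kinase that through MK2 inactivates ZFP36, went from 457 ± 7.90 to 160 ± 17.9 CPM (-1.32 ± 0.08, edgeR adjusted p = 1.06e-06). Zc3h12d, another Regnase gene, fell from 86.5 ± 4.79 to 12.99 ± 0.995 CPM (-2.53 ± 0.11, edgeR adjusted p = 2.33e-07). Outside the rule for named genes, and chosen after their values were seen, Malt1, the protease that cleaves Regnase-1 and Roquins, rose by 0.73 ± 0.17, and Mapkapk2, which encodes MK2, stood at -0.36 ± 0.16 (edgeR adjusted p = 0.0736).

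The mRNAs that these proteins are known to act on were mostly higher in the tumor. Of 38 tested of 42 listed, 31 rose and 3 fell in LLC tumor against LLC blood, where 29.6% of all genes rose and 31.7% fell. Against healthy blood 33 rose and 3 fell, where 33.5% of all genes rose and 33.0% fell. The medians were 4.18 and 3.57, beside -0.03 and 0.00 over all genes. In LLC blood against healthy blood 4 rose and 4 fell (median -0.43), beside 14.0% and 9.61% of all genes. Ptgs2, which encodes the prostaglandin synthase COX-2, went from 2.48 ± 3.00 CPM in LLC blood to 1746 ± 276 in LLC tumor (9.89 ± 0.70, edgeR adjusted p = 3.11e-06). The neutrophil chemokine gene Cxcl2 stood at 2.01 ± 2.43 CPM in LLC blood and 1728 ± 486 in LLC tumor, with counts shared between genes, and Cxcl1 at 0.112 ± 0.154, from 4 counts in all, and 82.4 ± 10.1. In LLC blood, Lcn2 rose by 3.46 ± 0.47, Rel by 1.71 ± 0.24 and Socs3 by 1.26 ± 0.16. Lcn2, also a neutrophil granule gene, stood at 37.7, 90.2 and 70.8 CPM in LLC blood, where the granule gene Ltf stood at 0.574, 22.9 and 9.37 and Elane at 3.35, 8.51 and 5.12, in the same order of libraries; the part of neutrophil mRNA in the rise of Lcn2 was not tested. This target list and the stress list share members, including Fos, Ier2, Ier3, Dusp1, Nfkbia and Socs3, so their counts are not separate evidence. Dusp1 is also on the regulator list, and Btg2 is on both the stress list and the deadenylation and decapping list. Between healthy blood and LLC tumor, 16 of the 27 stress genes rose and 1 fell. Lists other than the target and stress lists split more evenly in that comparison, as did all genes, of which 33.5% rose and 33.0% fell. There 10 of 29 deadenylation and decapping genes rose and 9 fell, and 3 of 15 exosome genes rose and 7 fell. Of 15 tested other AU-rich element binders 4 rose and 5 fell, and of 23 tested regulators 8 rose and 9 fell. An mRNA level does not separate its synthesis from its decay, and protein was not measured here.

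**Figure D5:**
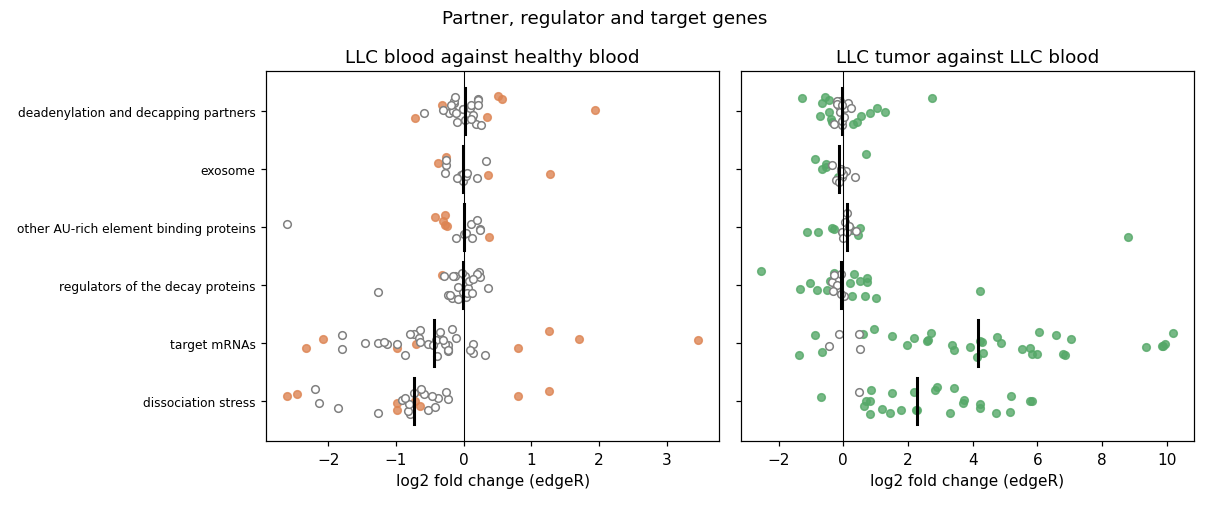
log2 fold change of each listed gene, on the left between the blood groups and on the right from LLC blood to LLC tumor; filled points have an adjusted p under 0.05 and the black bar is the list median. The target mRNAs and the stress genes lie mostly above 0 in the tumor comparison, with medians of 4.18 and 2.28, and the other lists lie around 0.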

How the data were processed

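RNA from sorted monocytes was extracted with TRIzol and made into TruSeq libraries, per the labels' protocols. The authors deposited a table of expected counts (estimated read counts per gene, not all of them whole) and a CPM table of 10693 genes, which hold 88.8% to 91.7% of each library's counts. The deposited CPM gave whole reads in 100% of values (tolerance 0.05 read), and 100% of these equalled the rounded counts of the same genes. On those reads edgeR tested 10520 genes and called 2584 between the blood groups. It called 6792 between LLC tumor and LLC blood and 7236 between LLC tumor and healthy blood. On the counts it tested more genes, 12337, and called 2917, 7566 and 8209. The submitters' processing notes name STAR 2.6.1d, Salmon 1.9.0, Trim Galore, edgeR and mm10 with no role; how counts were shared between genes is not given in the sources used here. Blood columns are headed BM, read as blood monocyte from the sample titles; the table alone does not decide against bone marrow.

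Expected counts were rounded and tested in edgeR 4.0.16 (R 4.3.3), glmQLFit and glmQLFTest, with TMM factors and the edgeR expression filter, in 1 model of all 9 libraries, where 12337 genes were tested, all 8 members among them. p-values were adjusted by Benjamini-Hochberg over all tested genes, and SE is the fold change over the square root of F. CPM printed here, and the overlaps read from it, use the total of all entries and no TMM factor. Without transcript lengths, levels are compared between libraries and not between genes. Ratios used counts + 0.5 and exact permutation tests. The procedure was tested on simulated data.

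The members and the gene lists were chosen with earlier results of these data known. Genes other than members were named by a rule: in each list and comparison, at most the 3 called genes of at least 20 CPM with the largest change, and the 3 genes closest in pattern to each member that changed at least 2-fold. DESeq2 1.42.0, limma 3.58.1 (voom), other scaling, filters, thresholds, a replicate block, leaving out each library and the recovered reads (chosen after seeing the data) were alternatives. The other 22 of 31 samples (ATAC-seq, CUT&Run, CUT&Tag) were not analysed here. RefSeq tables of GRCm38.p6 gave positions and promoter windows.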

Additional observations from a re-analysis of the deposited data

How the results depend on the processing

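The rises of Zfp36, Zfp36l1 and Zc3h12a in LLC tumor, over both blood groups, passed in all 20 alternatives, as did the fall of Elavl1 in LLC blood. Of 480 single-gene values recomputed, 431 kept their direction and side of the threshold, 5 lost it, 28 gained it and 16 changed sign, none of them while called. For LLC blood against healthy blood (main count 3 called, 1 higher, 2 lower), limma-voom with quality weights called 6 (3 higher), the 6 libraries compared alone 5 (4 lower), and adjusted p under 0.01 called 1 (0 higher, 1 lower); leaving out each library gave 2 to 5 called, 0 to 1 higher and 1 to 4 lower. For LLC tumor against LLC blood, DESeq2 called 5 (5 higher), and leaving out each library 3 to 4. For LLC tumor against healthy blood, limma-voom, upper-quartile factors, library totals and the reads recovered from CPM each called 2 lower, and leaving out each library gave 5 to 6 called and 1 to 2 lower. Sign changes were all below the threshold: Rc3h2 in LLC blood was -0.013 without healthy blood 2 and up to 0.142 without LLC blood 1. In LLC tumor against LLC blood, Rc3h1 was 0.061 with DESeq2, 0.060 with RLE factors, 0.034 in the 6 libraries compared with or without the replicate block, and -0.136 to 0.109 leaving out a library; Zc3h12c was -0.022 with limma-voom, -0.079 with library totals and -0.011 to 0.288 leaving out a library; Rc3h2 was -0.12 with library totals and -0.022 to 0.116 leaving out a library; and Elavl1 was -0.060 with library totals. In LLC tumor against healthy blood, Rc3h2 was -0.036 with library totals. The cause was not tested.

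Same-numbered libraries were closest to each other for some numbers only. In the blood comparison the correlations of their deviations were 0.298, 0.156 and 0.051, beside at most -0.160, 0.191 and 0.130 with another number. They were -0.013, 0.150 and -0.102 between LLC tumor and LLC blood, beside at most 0.111, -0.055 and 0.089. Between LLC tumor and healthy blood they were 0.040, 0.016 and 0.076, beside at most 0.022, 0.035 and -0.019. Zfp36 was highest in replicate 1 of every group (808, 609.5 and 1477 CPM). With the replicate block in the 6 libraries compared, 6 members were called in LLC blood (2 higher, 4 lower), and Zfp36 passed there at -1.05 (edgeR adjusted p = 0.00369), and at -1.03 in 9 libraries (edgeR adjusted p = 0.0116). Library totals moved the median of all genes to -0.23 in LLC tumor against LLC blood and to -0.17 against healthy blood, and the share of called genes that were higher from 48.3% to 36.3% and from 50.4% to 40.5%; upper-quartile factors moved it from 59.4% to 46.3% in LLC blood. Exosome genes called lower in LLC tumor against LLC blood went from 5 to 10 and regulators from 7 to 11 with library totals. With upper-quartile factors, target mRNAs called lower in LLC blood went from 4 to 7 and deadenylation genes from 2 to 5.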
